A study of Mus musculus with 12 samples.

Results

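The major urinary proteins are a family of small secreted carrier proteins of the mouse, and 9 of their genes were followed here in the liver of wild type and glucagon-deficient mice. The 9 genes, Mup1, Mup2, Mup3, Mup4, Mup5, Mup6, Mup7, Mup20 and Mup21, were found by symbol in a deposited table of 24475 genes, and each had its own row. The family was chosen by its values in the comparison of the 2 genotypes, so those values are given below as a description, without a test. Another 11 rows of the table belong to the same family (Mup8 to Mup17 and Mup19), which makes 20 Mup rows in all.

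RNA from livers of fed mice was sequenced as 12 strand-specific polyA libraries, 6 labelled WT and 6 labelled Gcg KO. WT libraries are numbered 1 to 6 and Gcg KO libraries 7 to 12. Gcg encodes the precursor of glucagon, and of the glucagon-like peptides made from the same precursor, so its loss removes all of them. The allele, strain, sex, age and time of day are not given here, and no label states that each library is a separate animal, so the p-values below measure the spread between these libraries. Levels are RPKM, reads scaled by transcript length and by library depth, as the authors deposited them.

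Gcg itself was listed at 0 RPKM in all 12 libraries, as a gene of the pancreas and gut, and therefore checks no label. The glucagon receptor gene Gcgr averaged 92.1 ± 3.16 RPKM over WT and 96.2 ± 4.53 over Gcg KO (mean ± SD, n = 6 each). The hepatocyte marker Alb, which encodes albumin, was at 26715 ± 2915 and 25992 ± 2656 RPKM. The Y-linked gene Ddx3y was between 11.3 and 17.8 RPKM in every library, and Xist, the X-inactivation RNA of females, was at most 0.0171 RPKM. Of 11 exocrine gland markers, listed because those glands can make Mup transcripts of their own, 5 were at 0 in every library. The list as a whole was not silent, and summed to 113 to 152 RPKM in WT and 75.7 to 131 in Gcg KO. Libraries WT 6, Gcg KO 10 and Gcg KO 12 stood apart, with Igfbp1, a liver gene under the control of insulin and fasting, at 6.22, 14.2 and 9.35 RPKM against 159 to 738 RPKM in the other 9, and results are given with and without them where they bear on a value.

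Major urinary proteins are lipocalins, barrel-shaped proteins that hold small volatile molecules in a central pocket. Mouse hepatocytes secrete them into the blood, the kidney passes them into the urine, and in scent marks they release their ligands slowly and mark the sex and identity of the owner. Most of the family is more abundant in adult males, under the control of growth hormone pulses, testosterone, glucocorticoid and thyroid hormone. Mup20 encodes darcin, the male protein that attracts females and makes them remember a scent. Mup4 and Mup5 belong to the members known from secretory glands and the nose as well as from liver.

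All 20 Mup rows lie in a cluster on chromosome 4 (GRCm38), from Mup4 (chr4:59956804-59960667) to Mup21 (chr4:62147832-62150841), with Mup20 at chr4:62011337-62054143 and Mup3 beside it at chr4:62083476-62087317 near the far end. Within it are Mup7 (chr4:60066469-60070475), Mup2 (chr4:60135913-60139977) and Mup1 (chr4:60498012-60501960). The coding sequences of the family fall into 2 kinds that matter for what an RPKM can say. Mup1, Mup2 and Mup7 belong to a block of nearly identical copies, together with the 11 other Mup rows. Over a coding sequence of 543 bases, Mup1 and Mup2 differ at 3 bases, Mup1 and Mup7 at 6, and Mup2 and Mup11 at 1. Mup3, Mup4, Mup5, Mup6, Mup20 and Mup21 are diverged members that flank that block. Mup20 differs from Mup2 at 48 bases and from its nearest relative, Mup5, at 45, an identity of 91.7%. Mup3 and Mup21 are each other's nearest relatives, at 96.3% identity. The same 60-base stretch of coding exon 2 is printed for each member, 5′ to 3′ on the coding strand (minus for all but Mup6), to show where reads could and could not be told apart, and capitals mark bases that differ from Mup2. The sequences are from the GENCODE M21 transcripts, and the stretch lies at chr4:60139263-60139322 for Mup2 and chr4:62053524-62053583 for Mup20.
Mup2: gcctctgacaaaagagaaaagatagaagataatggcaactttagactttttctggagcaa
Mup1: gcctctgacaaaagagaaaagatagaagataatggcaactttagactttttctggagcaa
Mup7: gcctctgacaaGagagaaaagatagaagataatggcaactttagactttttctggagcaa
Mup6: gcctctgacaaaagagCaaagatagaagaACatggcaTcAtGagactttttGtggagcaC
Mup4: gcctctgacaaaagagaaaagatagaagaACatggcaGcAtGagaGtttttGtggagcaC
Mup5: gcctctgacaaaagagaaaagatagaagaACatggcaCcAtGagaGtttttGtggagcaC
Mup20: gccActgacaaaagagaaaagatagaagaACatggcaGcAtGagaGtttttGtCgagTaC
Mup3: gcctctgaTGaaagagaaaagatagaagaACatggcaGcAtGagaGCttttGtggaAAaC
Mup21: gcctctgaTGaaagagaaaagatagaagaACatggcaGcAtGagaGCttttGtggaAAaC

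Mup1 and Mup2 are the same over the whole stretch and Mup7 differs at 1 base, so a read from here could not be assigned to Mup1 or to Mup2 by its sequence. Mup6, Mup4 and Mup5 each differ from Mup2 at 8 bases, Mup20 at 11, and Mup3 and Mup21 at 13, although Mup3 and Mup21 are identical to each other here. Of all 50-base windows of the transcript, none of Mup2, 5.24% of Mup1 and 5.69% of Mup7 occurred in no other Mup row of the table. The share was 80.9% for Mup21, 83.9% for Mup5, 85.1% for Mup3, 87.7% for Mup4, 95.3% for Mup20 and 98.2% for Mup6. Against every transcript of the annotation the Mup20 share was lower, 49.5%, because Mup20 shares windows with transcripts that are not rows of the table, such as a Mup pseudogene. No source used here names the aligner or says what was done with reads that fit several copies. The RPKM of Mup1, Mup2 and Mup7, and of the 11 other rows, are therefore uncertain one by one, and sums over the copies are given beside them.

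Summed over the 9 members, Mup RPKM ran from 20551 through a median of 23487 to 31414 in WT and from 30319 through 38966 to 48419 in Gcg KO. The mean was 24509 ± 3977 RPKM (SD, n = 6) in WT and 38785 ± 6831 in Gcg KO, a ratio of 1.58, and the mean difference on the log2 scale was 0.66 ± 0.14 (SE). The groups overlapped at 1 point: Gcg KO 10 lay below WT 1, the highest WT library, and the other 5 Gcg KO libraries lay above it. Without the 3 libraries that stood apart the sums were 25301 ± 3882 RPKM (n = 5) and 42524 ± 4604 (n = 4), a log2 difference of 0.76, and they no longer overlapped. Summed over all 20 rows, the family took 4.75% ± 0.815 of all RPKM in WT and 7.53% ± 1.39 in Gcg KO. In a bulk sample, more RNA per cell and more cells that hold the RNA cannot be told apart.

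**Figure D1:**
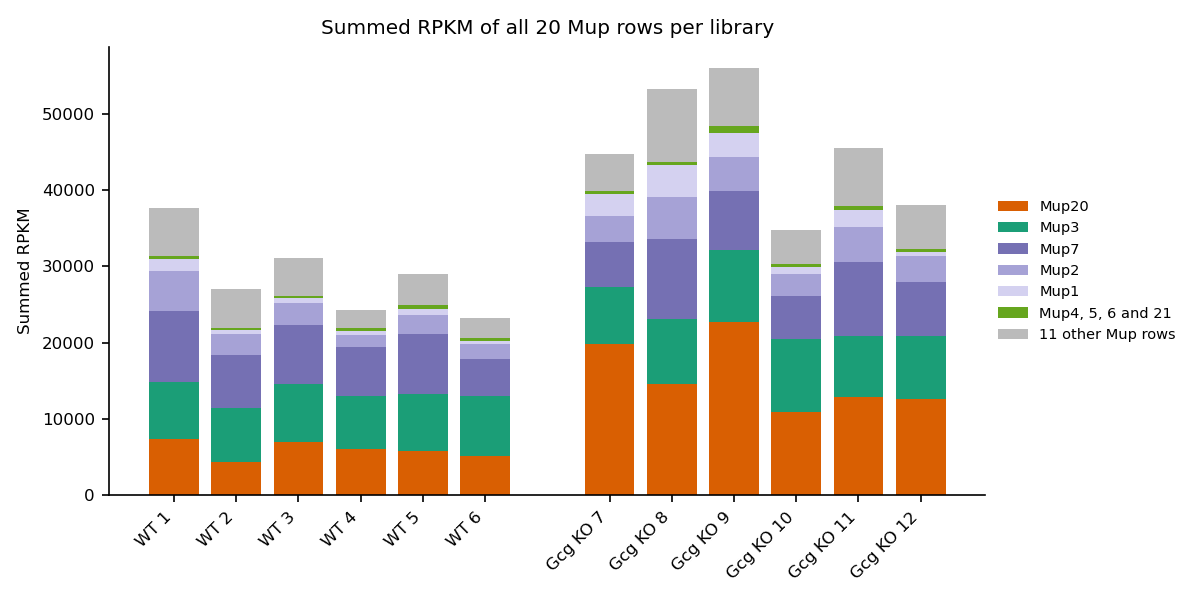
Summed RPKM of the 20 Mup rows in each of the 12 libraries (linear axis from 0), with each stacked segment the RPKM of 1 row or group of rows. The Mup20 segment reaches 4349 to 7316 RPKM in WT and 10852 to 22709 in Gcg KO, while the Mup3 segment stays between 7013 and 9596 throughout.

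Mup20, the gene of darcin, had the largest part in that difference. Its RPKM was lowest at 4349, 5880 at the median and 7316 at the highest in WT, and 10852, 13714 and 22709 in Gcg KO. All 6 Gcg KO libraries were above all 6 WT libraries, and the lowest of them, Gcg KO 10, was one of the 3 that stood apart. The means were 5928 ± 1104 RPKM in WT and 15551 ± 4652 in Gcg KO, a ratio of 2.62 and a log2 fold change of 1.36 ± 0.19 (SE). By mean RPKM, Mup20 was the 18th most abundant gene of the table in WT and the 4th in Gcg KO. Of the 16682 RPKM by which the 20 Mup rows together differed between the group means, 9623 RPKM, or 57.7%, were from Mup20 alone. Its share of the 9-member sum was 24.2% ± 2.73 in WT and 39.7% ± 6.90 in Gcg KO, without overlap. The other 8 members together were at 18582 ± 3131 RPKM over WT and 23234 ± 4024 over Gcg KO, a ratio of 1.25, and their groups overlapped.

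Mup1, a member of the nearly identical block, had a larger ratio of means than Mup20 but a wide spread. It stood at 335, 547 and 1644 RPKM (lowest, median, highest) in WT and at 529, 2561 and 4278 in Gcg KO, means of 718 ± 473 and 2322 ± 1437. WT 1 was far above the other WT libraries, which reached 749, and Gcg KO 10 and 12, at 819 and 529, were far below the other 4 Gcg KO libraries, which began at 2267. The ratio of means was 3.24 with all 12 libraries and 3.96 without the 3 that stood apart, and the log2 fold change was 1.55 ± 0.51 (SE). Within WT, its coefficient of variation of 65.9% was above that of 98.2% of all tested genes.

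Mup2 and Mup7, the other members of that block, differed less between the genotypes. Mup2 was at 1668, 2616 and 5193 RPKM in WT and at 2893, 3964 and 5494 in Gcg KO. The groups overlapped, with WT 1 again the highest WT library and 1 Gcg KO library above it, and the ratio of means was 1.43 (log2 fold change 0.59 ± 0.24). Mup7, the most abundant of the copies, was at 4893, 7434 and 9330 RPKM in WT and at 5722, 7415 and 10460 in Gcg KO. The Mup7 medians were nearly equal, the ratio of means was 1.08 and the log2 fold change of 0.10 ± 0.18 was within its error. The copies differ in transcript length and share windows with transcripts outside the sum, so the sum is not free of that division either. Over all 14 nearly identical copies, whose sum depends less than any one row on how reads were divided among them, the mean was 15006 ± 4467 RPKM in WT and 20783 ± 5901 in Gcg KO. That ratio was 1.39, and 3 of 6 Gcg KO libraries were above the highest WT library.

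Mup3, an abundant diverged member, was the steadiest of the 9. It was at 7013, 7487 and 7812 RPKM in WT and at 7478, 8472 and 9596 in Gcg KO, with 5 Gcg KO libraries above the highest WT library. The ratio of means was 1.16, the smallest but for Mup7, and the log2 fold change was 0.21 ± 0.08 (SE). Its WT coefficient of variation was 4.32%, lower than that of nearly all tested genes (2.06% were lower still). Mup3 was also the one member for which WT 6 and Gcg KO 10 were the highest libraries of their groups. Its share of the 9-member sum was 30.8% ± 4.61 in WT and 22.7% ± 5.06 in Gcg KO.

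Mup21, the nearest relative of Mup3, was far lower and more variable. It was at 190, 271 and 507 RPKM in WT and at 208, 328 and 694 in Gcg KO. The groups overlapped over most of their range, each with 1 high library (WT 5 and Gcg KO 9), and the log2 fold change was 0.25 ± 0.29 (SE).

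Mup4 and Mup5, low in liver, had higher means in Gcg KO. Mup4 was at 5.66, 8.17 and 9.86 RPKM in WT and at 8.88, 14.3 and 19.98 in Gcg KO, which by an estimate of depth from the smallest steps in the table is 61.3 to 233 reads a library. Only Gcg KO 10 lay within the WT range, and the ratio of means was 1.84 (log2 fold change 0.81 ± 0.20). Mup5 was at 7.12, 8.56 and 11.7 RPKM in WT and at 10.7, 13.3 and 16.7 in Gcg KO, with 3 Gcg KO libraries above the highest WT library and a ratio of 1.48. Mup6, which lies on the opposite strand from the rest, was at 74.7, 97.9 and 142 RPKM in WT and at 97.1, 125 and 160 in Gcg KO. The Mup6 ratio was 1.30, and 2 Gcg KO libraries were above the highest WT library.

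**Figure D2:**
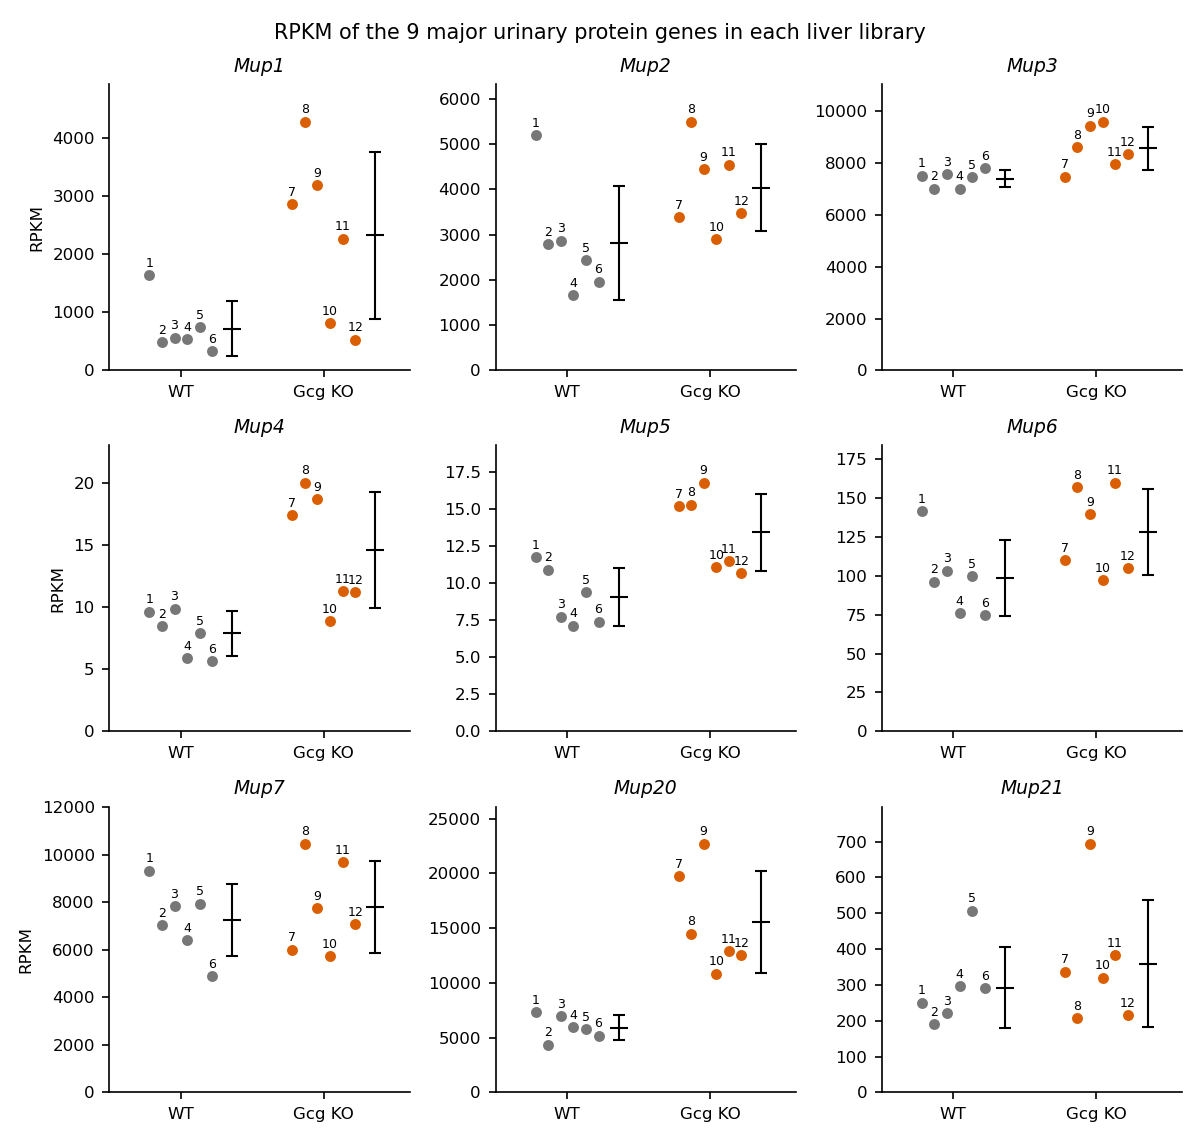
RPKM of each member in each library (numbered points, linear axes from 0, a separate scale per gene), with the mean and SD of the 6 WT and the 6 Gcg KO libraries to the right of each group. The groups are apart for Mup20, touch at 1 library for Mup4, and lie over each other for Mup7 and Mup21.

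In the fit over all genes, 11347 genes with a mean of at least 0.5 RPKM were tested, all 9 members among them. Of these genes 3.87% passed an adjusted p of 0.05 (limma, Benjamini-Hochberg), 1.95% as higher (221 genes, 50.3% of the calls) and 1.92% as lower (218 genes) in Gcg KO, and in 1.6% every Gcg KO library was above every WT library. Mup20 and Mup4 passed that threshold and Mup20 alone was without overlap, counts from which nothing is read, since the family was selected on this contrast. With the libraries scaled to equal sums over the genes that are not Mup, 65.6% of all calls were higher. The log2 fold changes of the members were all above 0, with a median of 0.55; over all tested genes 54.3% were above 0 and the median was 0.01. These too are given as a description of a family selected on this contrast.

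The 11 other Mup rows, all nearly identical copies, did not share one direction. Summed, they were at 4230 ± 1502 RPKM over WT and 6637 ± 1962 over Gcg KO, a ratio of 1.57 with overlapping groups. Of the 10 that passed the filter, 7 had a log2 fold change above 0 and 3 below it. Mup9 averaged 558 ± 416 RPKM over WT and 1375 ± 576 over Gcg KO, and Mup17 658 ± 434 and 1773 ± 692. WT 4 held Mup17 at 0.272 RPKM. Mup8 lay the other way, at 941 ± 117 RPKM over WT and 612 ± 326 over Gcg KO, with 4 Gcg KO libraries below the lowest WT library. Mup19, which has no 50-base window of its own, was under the filter. Some of its RPKM in Gcg KO, such as 9.28e-09, are smaller than 1 read would give at the estimated depth.

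**Figure D3:**
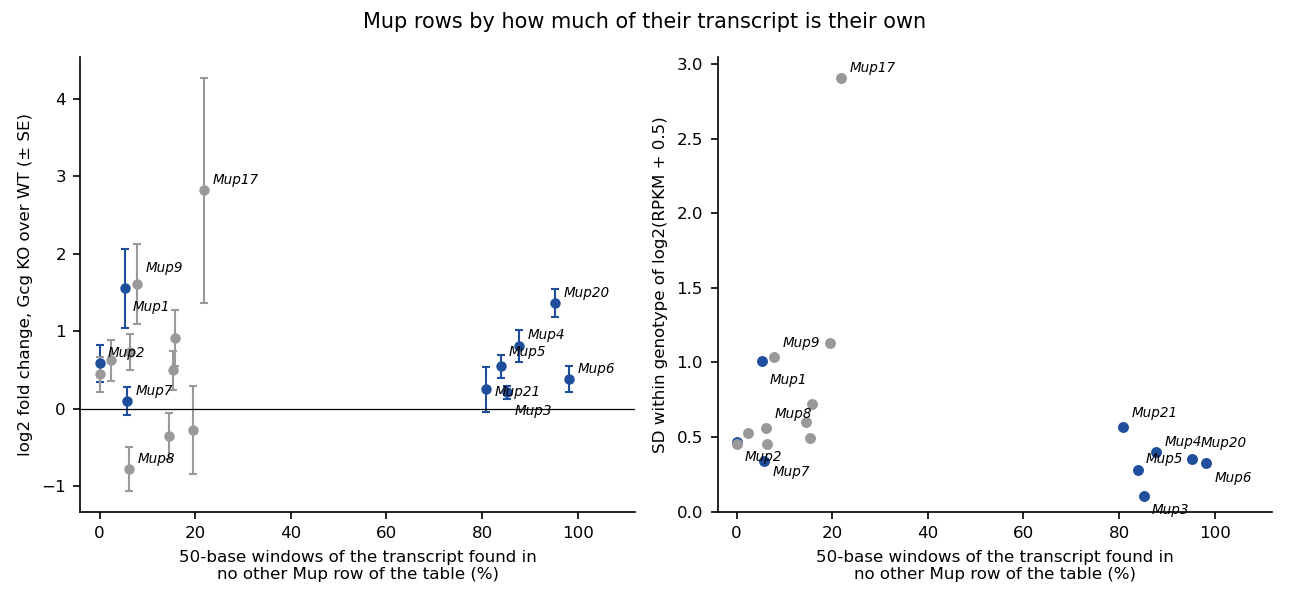
Log2 fold change of Gcg KO over WT with its SE (left) and SD of log2(RPKM + 0.5) within genotype (right) for the 19 Mup rows that passed the filter, against the percentage of 50-base windows of the transcript found in no other Mup row. Members are blue and the other rows grey, and the 6 diverged members, from 80.9% to 98.2%, have within-genotype SDs from 0.11 to 0.57. Mup7 (0.34), Mup2 (0.47), Mup8 (0.56), Mup11 (0.49), Mup13 (0.45), Mup14 (0.53) and Mup15 (0.45) are in the same range. Mup1, Mup9, Mup10, Mup12, Mup16 and Mup17 are above it, and the SD of 2.91 of Mup17 includes WT 4 at 0.272 RPKM.

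Within a genotype, 16 of the 36 pairs of members had a correlation above 0.5 across libraries. Over 12 libraries, with each gene's log2(RPKM + 0.5) centred on its genotype mean, Pearson correlations ran from -0.14 to 0.94, with a median of 0.44. Without the 3 libraries that stood apart they ran from -0.28 to 0.95 over 9 libraries, with a median of 0.42 and 11 pairs above 0.5. Mup2 and Mup6 were the closest pair at 0.94 (0.95 without the 3), followed by Mup6 and Mup7 at 0.91 (0.89). Mup6, at a mean of 98.5 RPKM in WT, shares some 50-base windows with Mup2, Mup7 and other far more abundant copies, and the part of shared reads in these correlations was not tested. Mup4 and Mup5 were at 0.80 (0.69). Mup20 went most with Mup4, at 0.69, and Mup1, at 0.66, but only at 0.46 and 0.42 without the 3. Mup3 was at -0.14 to 0.28 with the other members, and at 0.31 to 0.48 without the 3. All points share the same 12 libraries, and these correlations are a description.

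**Figure D4:**
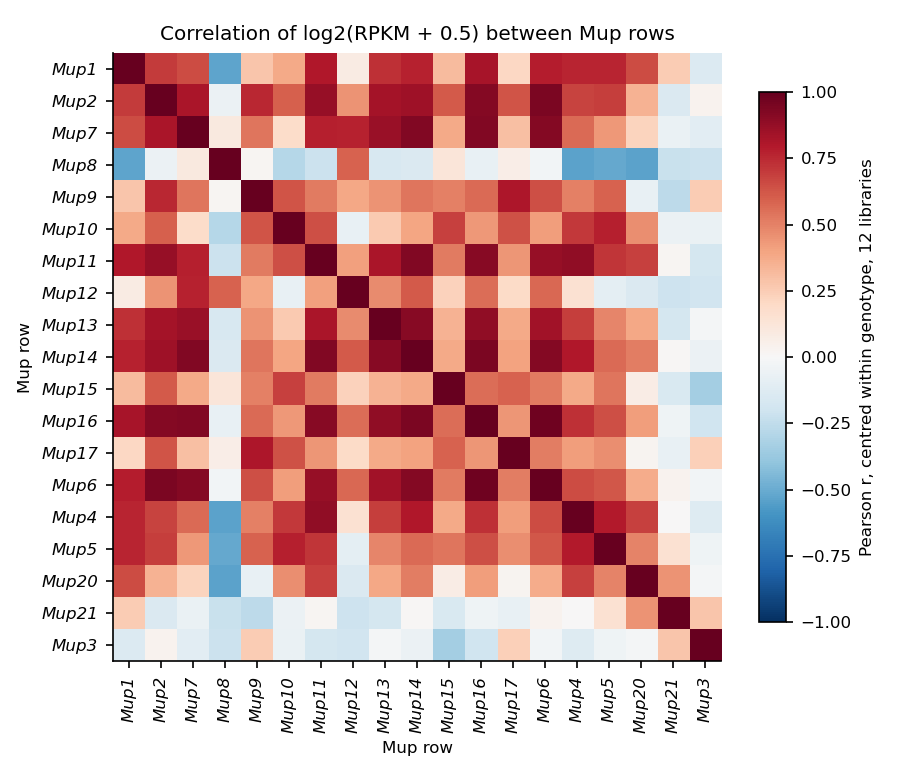
Pearson correlation between each pair of the 19 Mup rows that passed the filter (colour scale from -1 to 1), of log2(RPKM + 0.5) centred within genotype over 12 libraries. Mup2, Mup7 and Mup6 form a dark block with most nearly identical copies, and the rows of Mup3, Mup21 and Mup8 are pale or blue.

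Promoter sequence from RefSeq (GRCm38.p6) covered 6 of the members, and 120 bases upstream of the annotated start are shown for Mup6 and Mup7, a pair with a correlation of 0.91, and for Mup3, the steadiest member. They lie at chr4:60003361-60003480 (plus strand), chr4:60070476-60070595 (minus strand) and chr4:62087318-62087437 (minus strand), and capitals mark the TATA-type motif TATATAA, which the Mup7 stretch does not hold.
Mup6: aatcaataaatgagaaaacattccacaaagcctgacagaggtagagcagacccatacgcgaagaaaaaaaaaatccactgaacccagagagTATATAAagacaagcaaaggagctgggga
Mup7: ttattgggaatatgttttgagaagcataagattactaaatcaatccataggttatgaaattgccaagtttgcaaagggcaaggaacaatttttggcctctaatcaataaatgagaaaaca
Mup3: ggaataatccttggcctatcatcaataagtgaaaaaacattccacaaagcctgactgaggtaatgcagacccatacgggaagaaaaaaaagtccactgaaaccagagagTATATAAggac

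TATATAA, searched on both strands of the 300-base window around the start, was in 5 of the 6 member windows (not that of Mup7), against 3.24% of all 32851 windows of the genome. The Mup7 stretch ends in the bases that open the Mup6 stretch, so the annotated Mup7 start lies further upstream. Its window may stop short of the place the motif has in Mup6, and no lack of the motif in Mup7 is read from it. The window of Mup2 is set on a start inside the outer bounds of its gene, and its sequence is not shown. The motif begins 29 bases before the annotated start in Mup6 and 11 in Mup3. TTCNNNGAA, the motif that STAT factors bind, was in none of the 13 Mup windows and in 8.30% of all windows. A match describes letters in this window only.

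The genes that act on Mup transcription were described from lists of related genes, none of which holds a Mup row. These lists were chosen with earlier results of these data known, so their counts and p-values, here and below, are a description. Growth hormone acts through its receptor Ghr, the kinase Jak2 and the factors Stat5a and Stat5b, and STAT5 switches on the feedback inhibitors Socs2 and Cish and the growth factor gene Igf1. Of 17 tested genes of this list, 0 were higher and 0 lower past the threshold (limma), 5 had an unadjusted p under 0.05, as did 15.7% of all tested genes, and the median log2 fold change was -0.04. Ghr averaged 231 ± 20.9 RPKM in the WT libraries and 199 ± 19.97 in those of Gcg KO (log2 fold change -0.21 ± 0.08, adjusted p = 0.193), and Stat5b 17.95 ± 3.50 and 19.6 ± 2.83 (adjusted p = 0.722). Igf1 averaged 126 ± 10.9 RPKM in WT livers and 94.2 ± 22.96 in Gcg KO livers (log2 fold change -0.45 ± 0.13, adjusted p = 0.0829). Without Gcg KO 11 its adjusted p was 0.0074, past the threshold, and over all alternatives it ran from 0.0074 to 0.176. Socs2 and Cish, whose RNA follows each pulse of growth hormone, spread widely in both genotypes. Socs2 ran from 1.51 to 15.9 RPKM in WT and from 1.59 to 28.5 in Gcg KO, and Cish from 0.277 to 13.2 and from 0.648 to 22.1. The highest Cish values were in WT 6, Gcg KO 12 and Gcg KO 10, the libraries where Igfbp1 was low and Mup1 was lowest or next to lowest of its group. The part of this in the Mup values was not tested.

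Of 24 tested liver transcription factors known to set sex-biased or Mup expression, 0 were higher, 0 lower and 2 had an unadjusted p under 0.05. Hnf4a, the factor of hepatocyte identity, averaged 155 ± 8.94 RPKM in WT and 158 ± 25.5 in Gcg KO. Zhx2, a factor known to act on Mup expression, was at 5.04 ± 0.454 and 4.54 ± 0.595 (adjusted p = 0.495), and Nr3c1, the glucocorticoid receptor, at 13.8 ± 1.28 and 14.3 ± 1.61 (adjusted p = 0.871).

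Other male-biased liver genes did not share one direction with Mup20. Of 34 tested, 1 rose, 3 fell and 30 did not pass, with a median log2 fold change of 0.02. An unadjusted p under 0.05 (limma) was found for 12 of them, against 15.7% of all tested genes. Slco1a1, an organic anion transporter of the hepatocyte, rose from 118 ± 18.7 RPKM to 187 ± 14.8 (log2 fold change 0.68 ± 0.10, adjusted p = 0.0015), higher in 6 of 6 Gcg KO libraries than in any WT library. Elovl3, a fatty acid elongase, fell from 380 ± 58.3 to 228 ± 65.1 RPKM (log2 fold change -0.77 ± 0.16, adjusted p = 0.0153), and was at an adjusted p of 0.0913 without the 3 libraries that stood apart (0.0014 to 0.0913 over all alternatives). Ugt2b1, a glucuronosyltransferase, and Susd4, a complement inhibitor, also fell, by 0.67 ± 0.10 and 0.61 ± 0.08 on the log2 scale (adjusted p = 0.0014 and 3.7e-04). Cyp4a12a, Cyp2d9, Hsd3b5 and Cyp7b1, male-biased enzymes of fatty acid and steroid metabolism, did not pass. Cyp4a12a was at 378 ± 107 and 386 ± 123 RPKM.

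Of 38 female-biased genes, 19 were tested, and 6 had an unadjusted p under 0.05 (limma). Past the threshold 0 rose and 1 fell, and the median was 0.28. The one was Cyp17a1, a steroid hydroxylase, which averaged 3.30 ± 1.29 RPKM in WT livers and 0.324 ± 0.136 in Gcg KO livers (log2 fold change -2.14 ± 0.22, adjusted p = 9.7e-05). Cyp2b9 and A1bg, female-typical genes, were under the filter in these livers.

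Other lipocalins and carriers of small ligands were split too. Of 14 tested, 1 rose and 1 fell, 5 had an unadjusted p under 0.05 (limma), and the median was 0.03. Orm3 rose from 4.21 ± 2.06 to 11.2 ± 5.50 RPKM (log2 fold change 1.30 ± 0.33, adjusted p = 0.0429) and Orm2 fell from 16.003 ± 8.02 to 6.58 ± 2.68 (log2 fold change -1.18 ± 0.29, adjusted p = 0.0382). Both encode orosomucoids, and both calls were lost without the 3 libraries that stood apart, at adjusted p = 0.0599 and 0.0851. Over all alternatives these ran from 0.0303 to 0.0936 for Orm3 and from 0.0218 to 0.0878 for Orm2. Among 38 abundant secreted hepatocyte proteins, such as albumin and apolipoproteins, 0 rose and 0 fell, 10 had an unadjusted p under 0.05, and the median was -0.08. Of the markers of cell types, 2 of 12 hepatocyte markers (Cps1 and Tdo2) and 1 exocrine marker (Cela1) fell, and 1 of 9 endothelial markers (Lyve1) and 1 cholangiocyte marker (Spp1) rose. Of the macrophage, stellate, lymphocyte and neutrophil markers, 0 passed the threshold, and 2 stellate markers had an unadjusted p under 0.05. The summed RPKM of the 7 cholangiocyte markers, of which 3 were tested, was 14.5 to 27.8 in WT and 35.2 to 249 in Gcg KO. Most of that sum was Spp1 alone, at 11.2 to 25.1 RPKM in WT and 32.2 to 246 in Gcg KO. The sum of the 9 endothelial markers was 71.7 to 92.2 and 74.5 to 117, and that of the 11 exocrine markers 113 to 152 and 75.7 to 131. The part of these markers in the Mup values was not tested.

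**Figure D5:**
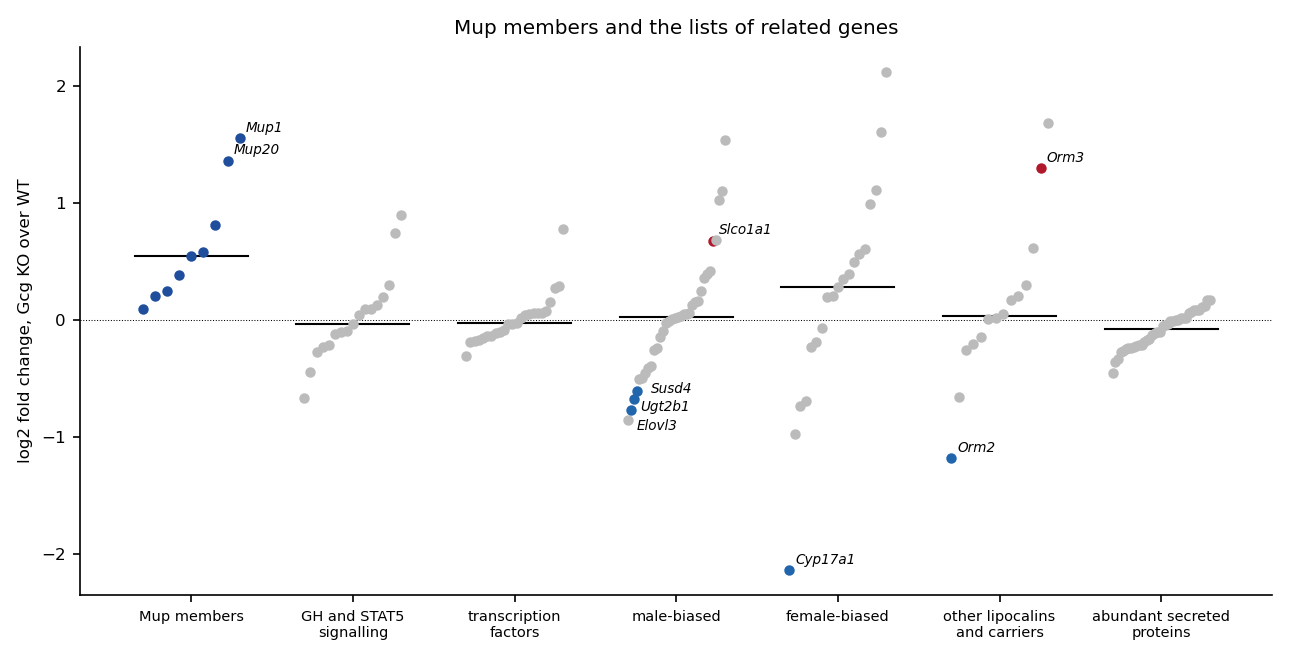
Log2 fold change of Gcg KO over WT for the 9 members (blue, left) and for the tested genes of each list of related genes, 1 point per gene, with a bar at each median. Red and blue points in the lists passed the threshold as higher or lower and are named, and grey points did not, with the member median at 0.55 and the list medians between -0.08 and 0.28.

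The genes whose level followed the 9-member sum most closely from library to library were Capn8, Pxk, Cd207, Sorl1, Kcnk1, Saa1, Mrpl38 and Saa2. Their centred Pearson correlations over 12 libraries ran from 0.87 (Saa2, an acute-phase apolipoprotein) to 0.96 (Capn8, a calpain protease), and from 0.77 to 0.95 over the 9 libraries left without the 3 that stood apart. The most negative were Bphl at -0.95, then F3, H2-Q6 and Sgk3 at -0.90. For Mup20 alone they were Nsun2 (0.90), Gne (0.87) and Pik3c2a (0.85). These are the extremes of 11347 genes over the same 12 libraries and are given as a description.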

How the data were processed

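The deposited table holds RPKM per gene for 12 libraries, with gene identifiers, as the authors made it. Per the submitters' processing notes, CASAVA 1.8.2, FastQC and the build GRCm38 were used; no source used here names the aligner, counter or annotation. The unit is not counts, so no count test was run. Depth, estimated from the smallest steps of low genes, was 10300000 to 15000000 reads a library, and limits rows of few reads.

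From the RPKM, log2(RPKM + 0.5) was fitted by genotype for genes with a mean of at least 0.5 RPKM with limma 3.58.1 in R 4.3.3, using a trend of variance on the mean and Benjamini-Hochberg adjustment over 11347 genes. A log2 fold change on this scale understates the change of low genes. The fit was tested on simulated data. The members and lists were chosen with earlier results of these data known. No test is given for the members, and the counts and p-values of the lists are a description. Named are all Mup rows, a panel of 25 genes (1 of them not reported here), list genes past the threshold, and the genes most like the summed Mup RPKM (8 highest, 4 lowest) and Mup20 (3). Coding sequences were aligned with mafft 7.526. Alternatives varied the pseudocount, the filter, the scaling, the trend and the libraries.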

Additional observations from a re-analysis of the deposited data

Results flagged for a closer look

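In groups of 6 libraries, a single high library stood further from the rest than Dixon's limit in 12 of 104 groups with a mean of at least 0.5 RPKM. Each group was a gene, or a sum of Mup rows, in 1 genotype. The limit is set for about 1 in 20 among independent normal values. Many Mup rows share reads and the sums overlap, so no excess over that rate is read from the count. Among the members, Mup1 was at 1644 RPKM in WT 1 against 335 to 749 in the other WT libraries, and Mup2 at 5193 RPKM in WT 1 against 1668 to 2864. Mup21 was at 507 RPKM in WT 5 against 190 to 296, and at 694 RPKM in Gcg KO 9 against 208 to 382. Of the other copies, Mup13 was at 32.7 RPKM in Gcg KO 8 against 13.2 to 18.6, and Mup16 at 473 RPKM in WT 1 against 114 to 242. Outside the family, Socs2 was at 15.9 RPKM in WT 4, Cish at 13.2 in WT 6, Cyp2d9 at 1130 in Gcg KO 8, Ugt2b1 at 415 in WT 5 and at 262 in Gcg KO 11, and Orm2 at 31.1 in WT 1.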

How the results depend on the processing

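No paired analysis was run because the labels name no pairing of WT with Gcg KO libraries. The library numbers run on from WT (1 to 6) to Gcg KO (7 to 12) and do not show whether pairs existed. The log2 difference of the summed Mup RPKM was above 0 under all 19 alternatives, from 0.59 to 0.76. The changes of pseudocount among them cannot move this sum and repeat the main value. Of 189 values of the 9 members under the alternatives, 188 kept their direction. The changes of filter among them cannot move a member's log2 fold change and repeat the main value. Mup7 without WT 6 did not keep its direction, at -0.011 (range -0.011 to 0.178 leaving out 1 library). Mup20 ran from 1.24 to 1.51 and Mup1 from 1.31 to 2.11. The number of members past the threshold was 1 with no filter, with median-of-ratios scaling, with quantile normalization and with no mean-variance trend. It was 1 to 3 leaving out 1 library. Mup4 was not past the threshold in 10 of the 12 fits leaving out 1 library, and Mup20 was past it in all 23 fits. Nothing is read from these counts. The correlations between members without the 3 libraries that stood apart were added after seeing the data.

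Genes higher in Gcg KO numbered 339 with equal sums over genes that are not Mup, 128 without the 3 libraries that stood apart, and 136 to 261 leaving out 1 library (136 without WT 3 and 142 without Gcg KO 9, against 221); genes lower numbered 141 to 210 leaving out 1 library (141 without WT 3, against 218). Growth hormone and STAT5 genes lower numbered 0 to 2 leaving out 1 library (2 without Gcg KO 11, Igf1 among them), and transcription factors higher 1 without the 3. Male-biased genes higher numbered 2 with quantile normalization and 1 to 2 leaving out 1 library. Female-biased genes higher numbered 1 with equal sums over genes that are not Mup and 0 to 1 leaving out 1 library; those lower numbered 0 at a mean of at least 2 RPKM, 2 with median-of-ratios scaling, and 1 to 2 leaving out 1 library. Lipocalins and carriers higher numbered 0 with no filter, median-of-ratios scaling or quantile normalization, 2 at a mean of at least 2 RPKM or with equal sums over genes that are not Mup, and 0 to 2 leaving out 1 library; those lower numbered 0 with no filter or without the 3, and 0 to 1 leaving out 1 library. Secreted proteins lower numbered 1 at a mean of at least 2 RPKM, 2 with quantile normalization, and 0 to 2 leaving out 1 library.

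Of 569 values of 26 related genes, 25 changed sign, all of them in genes with no call. The changes of filter and trend cannot change a sign. Onecut1 was at 0.0032 with equal sums over genes that are not Mup and at -0.44 to 0.32 leaving out 1 library. Hnf4a was at -0.00088 with median-of-ratios scaling and at -0.0452 to 0.0792 leaving out 1 library. Without the 3, Nr3c1 was at -0.033 and Hsd3b5 at -0.0215. Leaving out 1 library, Hsd3b5 ran from -0.0196 to 0.0942, Bcl6 from -0.33 to 0.12, Cyp7b1 from -0.28 to 0.0527 and Cyp4a12a from -0.17 to 0.16. The causes were not tested. Depth limits Mup4, Mup5, Mup13 and Mup15, and shared sequence limits the 14 nearly identical copies.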
